A study of Homo sapiens with 6 samples.

Results

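The genes described here are 35 p53 targets, cyclin-dependent kinase (CDK) inhibitors and senescence markers, read out by RNA sequencing in human dermal fibroblasts with and without knockdown of the zinc-finger gene ZNF469. They were chosen by name, and all 35 were found among the 21151 genes of the deposited table. The cells were the fibroblast line CCD-1064Sk (CRL-2076), grown in serum-containing medium from human skin, and all of them carried a short hairpin. In 3 libraries (shZNF469) the hairpin was directed at ZNF469, and in 3 libraries (shControl, labelled WT for genotype) it was a control. The study asked how ZNF469 affects the making of extracellular matrix. The submitters call the 3 libraries of a group technical replicates of an established line, so the p-values measure only the spread between these libraries. The number of different hairpins is not given in the sources used here.

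The p53 protein is a transcription factor that accumulates after DNA damage and other stress, and it switches on genes that halt the cell cycle, repair DNA, change metabolism or start cell death. One of its targets, MDM2, marks p53 for degradation and so closes a feedback loop. CDK inhibitors fall into the Cip/Kip family, which binds cyclin and CDK complexes, and the INK4 family, which binds CDK4 and CDK6. In skin fibroblasts, lasting arrest with raised CDK inhibitors and loss of the nuclear lamina protein lamin B1 is known as senescence.

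Total counts ran from 41318439 to 48298264 in shZNF469 and from 35417366 to 46911355 in shControl. ZNF469 itself had 21.4, 18.3 and 18.5 CPM (counts in each 1000000, with TMM-scaled library sizes) in shZNF469, against 39.7, 46.2 and 39.9 CPM in shControl, which left 46.2% of the control level (edgeR adjusted p = 0.000873). All 11 fibroblast markers were above 1 TPM (transcripts in each 1000000, scaled for gene length), summing to 24983 to 26422 TPM in shZNF469 and 31930 to 34303 TPM in shControl, with COL1A1 log2 fold change at -1.75. Of the markers of other cell types, 4 of 16 keratinocyte, 3 of 9 melanocyte, 4 of 10 endothelial and 2 of 12 immune genes were listed at all. The keratinocyte sum was 61.6 to 62.6 TPM in shZNF469 and 63.8 to 71.5 TPM in shControl, the melanocyte sum 78.1 to 95.8 and 62.4 to 69.1 TPM, the endothelial sum 0.924 to 2.03 and 0.936 to 2.20 TPM, and the immune sum 204 to 245 and 172 to 195 TPM. Nearly all of the immune sum was CD68, at a mean of 229 TPM in shZNF469 and 184 TPM in shControl. The other listed immune gene, CD14, averaged 1.25 and 1.28 TPM, and both were named after their values were seen. The melanocyte genes MLANA, TYR and DCT, the keratinocyte genes KRT5 and KRT14 and the leukocyte gene PTPRC were not among the listed genes. Of those listed, the melanocyte marker PMEL was 2.01-fold higher in shZNF469 (edgeR adjusted p = 0.000525, held in all 12 alternatives), DSP 1.20-fold higher (0.0391) and KRT10 1.42-fold lower (0.0190). A list of 15 mitochondrial and stress genes used as signs of RNA quality summed to 57066 to 61740 TPM in shZNF469 and 50649 to 54369 TPM in shControl, without overlap. In it MT-CYB was 1.35-fold higher (edgeR adjusted p = 0.0286), EGR1 2.32-fold lower (0.00174) and DDIT3 1.76-fold lower (0.00300), and FOSB passed as higher but was listed at 0 in all shControl libraries. The calls of DSP, KRT10 and MT-CYB were lost without some single libraries, shZNF469 replicate 1 among them. The part of these differences in the values of the 35 genes was not tested.

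Of the 35 genes, all of which passed the filter on low counts, 8 rose and 3 fell with the knockdown (edgeR adjusted p under 0.05), with a median log2 fold change of 0.11. Of the 16353 genes tested, 4.56% were higher and 5.34% lower (9.9% in either direction), with a median of 0.00. The 8 make 22.9% of the 35 and the 3 make 8.57%. Among the 10214 genes at or above the mean CPM of the least expressed of the 35 (7.49 CPM), 6.19% were higher and 6.95% lower. The CDK inhibitor gene CDKN1A and the stress gene SESN1 had the lowest adjusted p of the rises, though ZMAT3, CCNG1 and SPATA18 rose by slightly more, and LMNB1, CDKN2C and TRIAP1 were the falls. Changes were small: only LMNB1 moved by 2-fold or more. In 17 of the 35 (48.6%) the groups' CPM did not overlap, against 31.4% of all tested genes. In 14 of the 35 shZNF469 lay above, and in 3 it lay below. Of all tested genes, 15.6% lay above and 15.7% below without overlap. In bulk RNA, fewer cells with a high level and less RNA in every cell cannot be told apart.

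**Figure D1:**
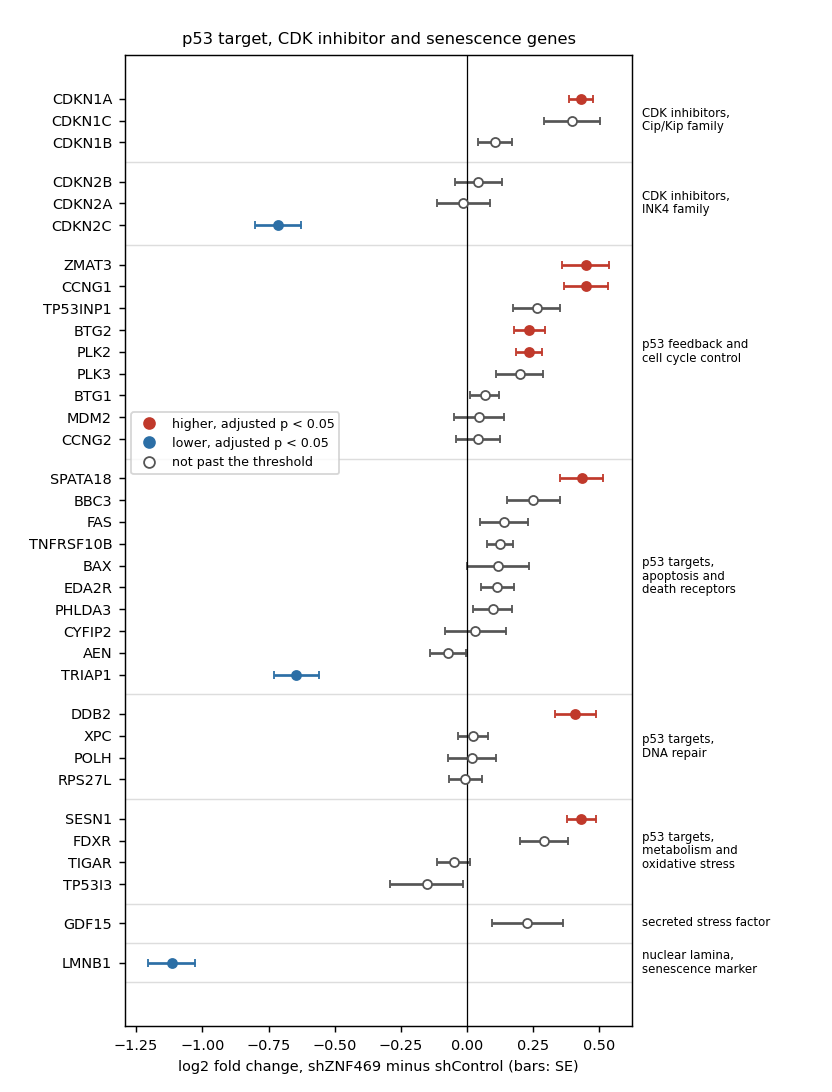
Log2 fold change of each of the 35 genes in shZNF469 relative to shControl (horizontal axis), with its standard error, grouped by role from top to bottom. Filled points passed an adjusted p under 0.05, 8 to the right of 0 and 3 to its left, and LMNB1 lies farthest from 0 at -1.12.

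The sequences just upstream of the start sites were taken from RefSeq (GRCh38.p14), which gave 31 of the 35 genes a window of 300 bases around the start. The sequences are shown because direct binding by p53 is what most of these genes are known for. Sites outside these windows were not searched. The search was for a single exact 10-base match, and binding was not tested, so neither a match nor its absence tells whether p53 binds. The 10-base p53 half-site consensus, searched on both strands, was found in 4 of the 31 windows (12.9%) and in 6.54% of 27303 windows of all genes. The matches are in capitals below, for PLK2 on the minus strand (chr5:58460184-58460243), AEN on the plus strand (chr15:88621281-88621339), RPS27L on the minus strand (chr15:63157502-63157561) and FDXR on the minus strand (chr17:74872995-74873030).
PLK2: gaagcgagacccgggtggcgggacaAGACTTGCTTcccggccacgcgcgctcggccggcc
AEN: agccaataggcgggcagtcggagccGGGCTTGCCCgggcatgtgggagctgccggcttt
RPS27L: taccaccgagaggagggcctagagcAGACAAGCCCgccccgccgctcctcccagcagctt
FDXR: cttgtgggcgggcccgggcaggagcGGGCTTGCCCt
AEN and FDXR have the same 10 letters. The start used for AEN lies inside the gene's span (chromosome 15, 88604683 to 88632281), not at its first base. Of these 4 genes PLK2 passed the test, and FDXR, AEN and RPS27L did not.

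CDKN1A, the gene with the highest level, had no half-site in its window, and sequence farther from the start used was not searched. The last 120 bases before the start used for CDKN1A (chr6:36678594-36678713, plus strand) held 4 matches to the GC box GGGCGG, in capitals. The last 2 matches overlap by 1 base. That start lies inside the gene's span (36676463 to 36687332), not at its first base.
CDKN1A: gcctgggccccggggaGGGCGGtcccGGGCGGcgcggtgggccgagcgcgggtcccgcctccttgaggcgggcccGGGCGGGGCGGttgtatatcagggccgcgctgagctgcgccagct
A GC box on either strand was found in 25 of the 31 windows (80.6%) and in 44.6% of all windows. An E2F site, searched as TTTGGCGC, TTTCGCGC or TTTCCCGC on both strands, was found in MDM2, BTG1, AEN, CYFIP2 and XPC (16.1% of the 31 windows, and 2.79% of all). None of these 5 genes passed the test.

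CDKN1A encodes p21, the Cip/Kip inhibitor through which p53 halts the cell cycle (chromosome 6, 36676463 to 36687332, GRCh38.p14). It had 643, 614 and 662 CPM in shZNF469, against 462, 473 and 489 CPM in shControl. Every knockdown library lay above every control, by more than the spread within either group. The rise was 1.35-fold (log2 fold change 0.43, SE 0.05, edgeR adjusted p = 0.00251) and kept its side of the threshold in each of 12 alternative analyses. At 696 ± 17.2 TPM in shZNF469 and 523 ± 11.4 TPM in shControl (SD, n = 3 each) it was also the most abundant of the 35 transcripts.

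The other Cip/Kip genes did not pass. CDKN1C, which encodes p57, had 25.3, 27.2 and 26.8 CPM in shZNF469 and 17.3, 19.8 and 23.2 CPM in shControl. The groups did not overlap, but the controls were spread widely and the log2 fold change of 0.40 (SE 0.11) missed the threshold (edgeR adjusted p = 0.0602). It passed with DESeq2 (adjusted p = 0.00117), with the replicate block (0.0489) and without shControl replicate 3, the highest of the controls. CDKN1B, which encodes p27, had 55.9, 65.0 and 60.1 CPM in shZNF469 and 56.5, 55.6 and 56.3 CPM in shControl, and its groups overlapped (edgeR adjusted p = 0.396). The TPM ratio of CDKN1A to CDKN1B, which does not depend on library scaling, was 12.6 ± 1.35 in shZNF469 and 10.04 ± 0.301 in shControl (SD, n = 3 each). The 3 ratios in shZNF469 all lay above those in shControl (exact two-sided permutation p = 0.1, the smallest that 3 against 3 allows, and 0.133 adjusted over 4 ratios).

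Among the INK4 genes, CDKN2C fell and its relatives showed no detectable difference. CDKN2C encodes p18, an inhibitor of CDK4 and CDK6 (chromosome 1, 50960745 to 50974634). It had 16.0, 17.9 and 19.8 CPM in shZNF469, against 29.9, 28.0 and 30.1 CPM in shControl. The highest knockdown library was well below the lowest control, a 1.64-fold fall (log2 fold change -0.72, SE 0.09, edgeR adjusted p = 0.00372). CDKN2A, whose locus encodes p16 and ARF and is widely used as a senescence marker, had 22.7, 20.8 and 26.1 CPM in shZNF469 and 23.1, 21.9 and 25.2 CPM in shControl. These values interleave (log2 fold change -0.01, SE 0.10, edgeR adjusted p = 0.958). One count per gene covers both products, so a shift between p16 and ARF could not be seen. CDKN2B, which encodes p15, had 8.44, 8.64 and 8.74 CPM in shZNF469 and 8.31, 8.79 and 7.97 CPM in shControl (edgeR adjusted p = 0.838).

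LMNB1 encodes lamin B1, whose loss is a marker of senescent fibroblasts, and its level is also known to be higher in dividing cells (chromosome 5, 126776623 to 126837020). It had 13.3, 11.4 and 11.05 CPM in shZNF469, against 26.6, 26.5 and 24.5 CPM in shControl. The groups were far apart and the fall was 2.17-fold (log2 fold change -1.12, SE 0.09, edgeR adjusted p = 0.000823), the largest change among the 35. The A-type lamin gene LMNA had log2 fold change 0.10 (edgeR adjusted p = 0.311). LMNB2, another B-type lamin gene, fell by less than LMNB1 (log2 fold change -0.34, edgeR adjusted p = 0.0211), and was named after its value was seen. The TPM ratio of LMNB1 to LMNA was 0.0118 ± 0.00118 in shZNF469 and 0.0281 ± 0.00168 in shControl (SD, n = 3 each), without overlap (exact two-sided permutation p = 0.1, 0.133 adjusted over 4 ratios). Of 20 proliferation genes, 19 fell in shZNF469, where 5.34% of all tested genes were lower. MKI67 was among the 19 (log2 fold change -1.17, edgeR adjusted p = 0.000159), and 18 or 19 fell without any 1 library. The part of that fall in the values of LMNB1, CDKN2C and TRIAP1 was not tested.

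**Figure D2:**
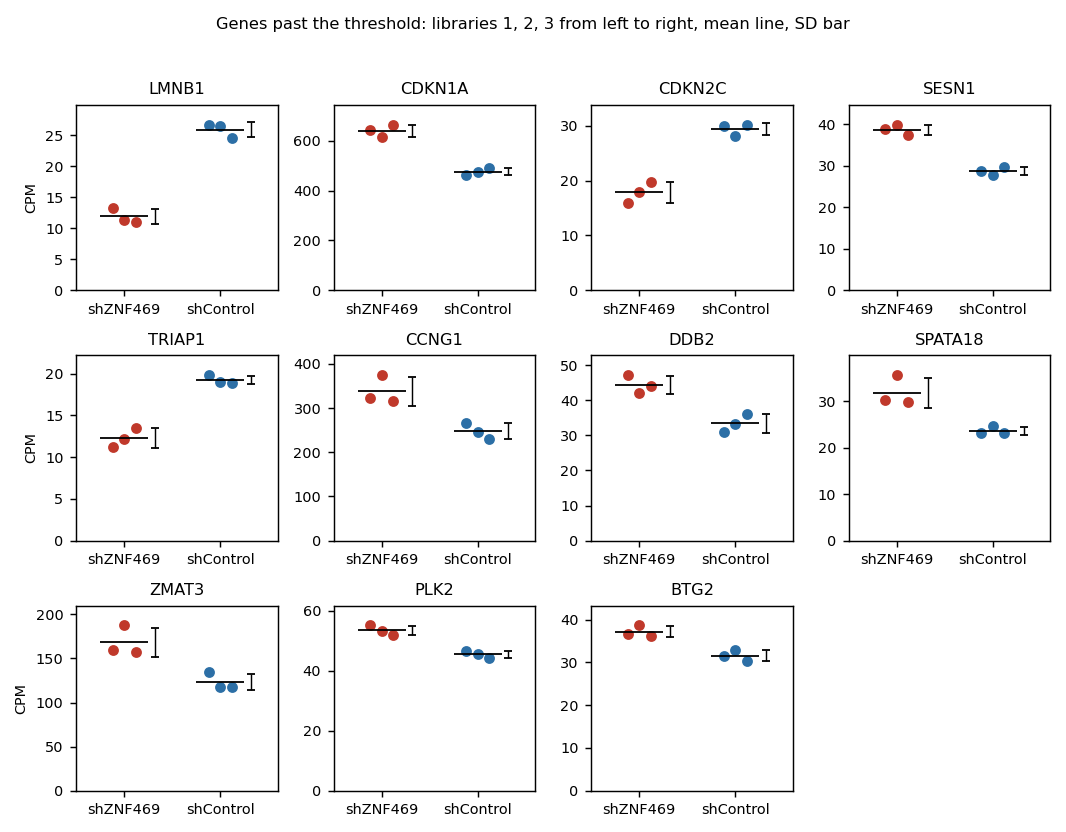
CPM in each library (points, replicates 1 to 3 from left to right) for the 11 genes that passed, shZNF469 left of shControl, with the mean (line) and SD (bar). The groups do not overlap in any of the 11 panels, and LMNB1, CDKN2C and TRIAP1 are those with the lower shZNF469 values.

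The 9 genes of p53 feedback and cell cycle control gave 4 of the 8 rises, and 0 of the 9 fell. Of all tested genes 4.56% were higher and 5.34% lower, so 0 falls among 9 is near that share. CCNG1, which encodes cyclin G1, had 323, 374 and 316 CPM in shZNF469, against 266, 246 and 231 CPM in shControl (1.36-fold higher, edgeR adjusted p = 0.0186). ZMAT3, which encodes an RNA-binding protein induced by p53, had 159, 187 and 158 CPM in shZNF469, against 134, 118 and 118 CPM in shControl (1.36-fold higher, edgeR adjusted p = 0.0224). In both, shZNF469 replicate 2 stood above the other knockdown libraries and shControl replicate 1 was the highest control. Both calls were lost without shZNF469 replicate 1, shControl replicate 2 or shControl replicate 3 (adjusted p up to 0.0772 for CCNG1 and 0.0926 for ZMAT3), and by limma on TPM (up to 0.101 and 0.105).

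PLK2, a polo-like kinase gene, had 55.1, 53.4 and 51.9 CPM in shZNF469 and 46.7, 45.5 and 44.1 CPM in shControl (1.18-fold higher, edgeR adjusted p = 0.0298). BTG2, an antiproliferative gene, had 36.5, 38.6 and 36.2 CPM in shZNF469 and 31.4, 32.9 and 30.3 CPM in shControl (1.18-fold higher, edgeR adjusted p = 0.0464). Both rises were small but tight within groups. The call of PLK2 was lost without shZNF469 replicate 1 or 3 or any 1 control (adjusted p up to 0.121), and that of BTG2 without any 1 of the 6 libraries (up to 0.154). By limma on TPM both calls were lost (up to 0.305 for PLK2 and 0.309 for BTG2). BTG2 also missed the threshold with no filter on low counts (adjusted p = 0.0592) and with the replicate block (0.0507).

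The p53 antagonist MDM2 did not pass. It had 84.7, 101 and 78.9 CPM in shZNF469 and 88.0, 85.0 and 84.2 CPM in shControl. The controls fell inside the range of the knockdown libraries (log2 fold change 0.04, SE 0.09, edgeR adjusted p = 0.838), so no difference was detectable beside the spread. The TPM ratio of MDM2 to its relative MDM4 was 11.00 ± 1.67 in shZNF469 and 8.60 ± 1.81 in shControl, with overlap (SD, n = 3 each; exact two-sided permutation p = 0.2). CCNG2, which encodes cyclin G2, had 51.8, 62.2 and 54.9 CPM in shZNF469 and 57.3, 56.0 and 50.7 CPM in shControl (edgeR adjusted p = 0.827). The TPM ratio of CCNG1 to CCNG2 was 10.9 ± 0.767 in shZNF469 and 8.25 ± 0.408 in shControl, without overlap (SD, n = 3 each; exact two-sided permutation p = 0.1, 0.133 adjusted over 4 ratios). TP53INP1, a p53 cofactor gene, had 54.7, 60.1 and 48.5 CPM in shZNF469, all above 46.1, 47.8 and 42.2 CPM in shControl, and missed the threshold (edgeR adjusted p = 0.115; 0.0132 with DESeq2 and 0.0458 with the replicate block). PLK3 and BTG1 had log2 fold changes of 0.20 and 0.07 and did not pass.

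Among 10 genes of apoptosis and death receptors, 1 rose and 1 fell, where 4.56% of all tested genes were higher and 5.34% lower. SPATA18, a p53 target that acts in mitochondrial quality control, had 30.2, 35.6 and 29.8 CPM in shZNF469, against 23.1, 24.6 and 23.1 CPM in shControl (1.35-fold higher, edgeR adjusted p = 0.0204). Its call was lost without shZNF469 replicate 1 or any 1 control (adjusted p up to 0.0926), and by limma on TPM (up to 0.148). TRIAP1, which encodes a small p53-regulated protein that counters apoptosis, had 11.2, 12.2 and 13.5 CPM in shZNF469, against 19.8, 19.04 and 18.9 CPM in shControl. The groups were well separated and the fall was 1.56-fold (log2 fold change -0.64, SE 0.09, edgeR adjusted p = 0.00537).

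The other 8 of these genes did not pass the test. BBC3, which encodes PUMA, had 17.5, 18.2 and 21.6 CPM in shZNF469 and 14.9, 16.3 and 16.9 CPM in shControl, without overlap but short of the threshold (log2 fold change 0.25, SE 0.10, edgeR adjusted p = 0.177). BAX, which permeabilises mitochondria, had 96.4, 80.9 and 107 CPM in shZNF469 and 78.5, 86.5 and 96.99 CPM in shControl, and the groups overlapped (edgeR adjusted p = 0.632). The death receptor gene TNFRSF10B had 136, 134 and 130.1 CPM in shZNF469, all above 119.6, 124 and 124 CPM in shControl, but the difference of 1.09-fold did not pass (edgeR adjusted p = 0.172; 0.0271 with DESeq2). The death receptor genes FAS and EDA2R had log2 fold changes of 0.14 and 0.11, the nuclease gene AEN -0.07 and CYFIP2 0.03, all short of the threshold. FAS shares 8.93% of its exon bases with the abundant ACTA2 on the other strand in GENCODE release 29, and without a stated strand setting its value is uncertain.

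PHLDA3, which encodes an inhibitor of AKT signalling, was the gene whose values differed most between CPM, computed here from counts, and the authors' TPM. Its CPM was 141, 125 and 149 in shZNF469 and 126, 128 and 135 in shControl, with overlap (log2 fold change 0.10, edgeR adjusted p = 0.499). Its TPM was 225, 141 and 121 in shZNF469 and 113, 115 and 117 in shControl, without overlap. The quotient of TPM to CPM was 1.59, 1.13 and 0.811 in the 3 shZNF469 libraries and 0.872 to 0.898 in shControl. The high TPM of shZNF469 replicate 1 thus had no match in its read count, and the cause was not tested. PHLDA3 shares 19.1% of its exon bases with AC096677.2 on the same strand in GENCODE release 29. TIGAR shares 42.6% with AC008012.1, also on the same strand, and its quotient varied 1.13-fold between libraries. Whether such overlap bears on the quotient was not tested. Between libraries this quotient varied 1.96-fold for PHLDA3 and up to 1.35-fold for RPS27L, the next of the 35. On the log2(TPM + 1) scale PHLDA3 differed by 0.44, still short of the threshold (limma adjusted p = 0.228).

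**Figure D3:**
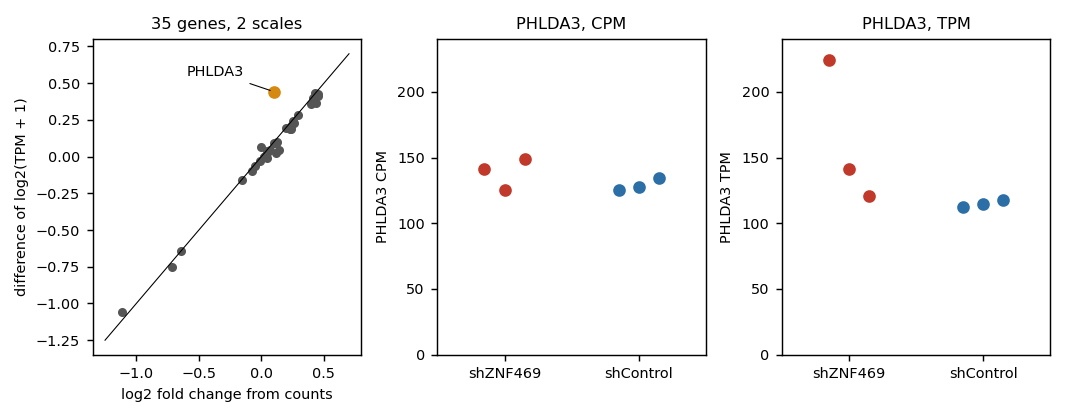
Left, the log2 fold change from counts (horizontal) against the difference of log2(TPM + 1) (vertical) for the 35 genes, with the line of equality, and PHLDA3 (0.10 and 0.44) above it. Middle and right, PHLDA3 in CPM and in TPM by library, shZNF469 left of shControl, where shZNF469 replicate 1 stands apart only in TPM, at 225.

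Of all tested genes 4.56% were higher, and of 4 DNA repair genes DDB2 rose. It encodes the damage-binding subunit of nucleotide excision repair and had 47.2, 42.0 and 44.0 CPM in shZNF469, against 30.9, 33.3 and 36.2 CPM in shControl (1.33-fold higher, edgeR adjusted p = 0.0188). The lowest knockdown library exceeded the highest control, and the call was lost without shZNF469 replicate 1, shControl replicate 1 or shControl replicate 2 (adjusted p up to 0.0806), and by limma on TPM (up to 0.0914). XPC, which recognises lesions in the same pathway, had 119.8, 111 and 117 CPM in shZNF469 and 112, 118 and 112 CPM in shControl, with full overlap (log2 fold change 0.02, SE 0.06, edgeR adjusted p = 0.865). POLH, which encodes a translesion polymerase, and RPS27L, a ribosomal protein paralogue, had log2 fold changes of 0.02 and -0.01.

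With 4.56% of all tested genes higher, SESN1 rose among 4 genes of metabolism and oxidative stress. It encodes sestrin 1, which restrains the growth kinase mTORC1, and had 39.0, 39.9 and 37.5 CPM in shZNF469, against 28.7, 27.8 and 29.7 CPM in shControl. Both groups were tight and far apart (1.35-fold higher, log2 fold change 0.43, SE 0.06, edgeR adjusted p = 0.00453), and the call held in each of the 12 alternative analyses. FDXR, which encodes a mitochondrial reductase, had 27.4, 22.8 and 26.3 CPM in shZNF469 and 21.6, 19.1 and 21.8 CPM in shControl, without overlap and short of the threshold (log2 fold change 0.29, SE 0.09, edgeR adjusted p = 0.0927). It passed with DESeq2 (adjusted p = 0.0125), with the replicate block (0.0425) and without shZNF469 replicate 2. TP53I3, an oxidoreductase gene, had 13.4, 12.3 and 13.1 CPM in shZNF469, inside the range of 11.7, 14.2 and 17.2 CPM in shControl (edgeR adjusted p = 0.590). TIGAR, a glycolysis regulator gene, had a log2 fold change of -0.05.

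GDF15, a secreted stress factor gene, varied most within shZNF469, at 86.7, 69.6 and 103 CPM, a coefficient of variation of 19.5%, against 70.9, 72.5 and 78.4 CPM and 5.31% in shControl. The lowest knockdown library was below all controls (log2 fold change 0.23, SE 0.13, edgeR adjusted p = 0.368). Over the 35 genes the median coefficient of variation was 8.80% in shZNF469 and 4.11% in shControl. Replicate 2 was the highest shZNF469 library for 15 of the 35 (42.9%, and 37.2% of all tested genes), and replicate 3 the highest shControl library for 15 (42.9% and 36.3%).

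On the length-scaled TPM the 35 genes spanned from CDKN1A down to CYFIP2, at 2.69 ± 0.227 TPM in shZNF469 and 2.68 ± 0.143 TPM in shControl (SD, n = 3 each). In shControl CDKN1A was followed by CCNG1 (238 ± 27.2 TPM), BAX (201 ± 13.3 TPM), GDF15 (144 ± 0.790 TPM) and PHLDA3 (115 ± 2.38 TPM). CDKN1A lay beyond the spread of CCNG1, whose lowest library overlapped BAX. CDKN2A (56.7 ± 2.31 TPM), BTG1 (54.7 ± 2.19 TPM) and CDKN1B (52.1 ± 2.25 TPM) followed each other, and the libraries of BTG1 overlapped those of both. LMNB1, further down the order, was at 9.59 ± 1.31 TPM in shZNF469 and 21.0 ± 1.97 TPM in shControl.

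**Figure D4:**
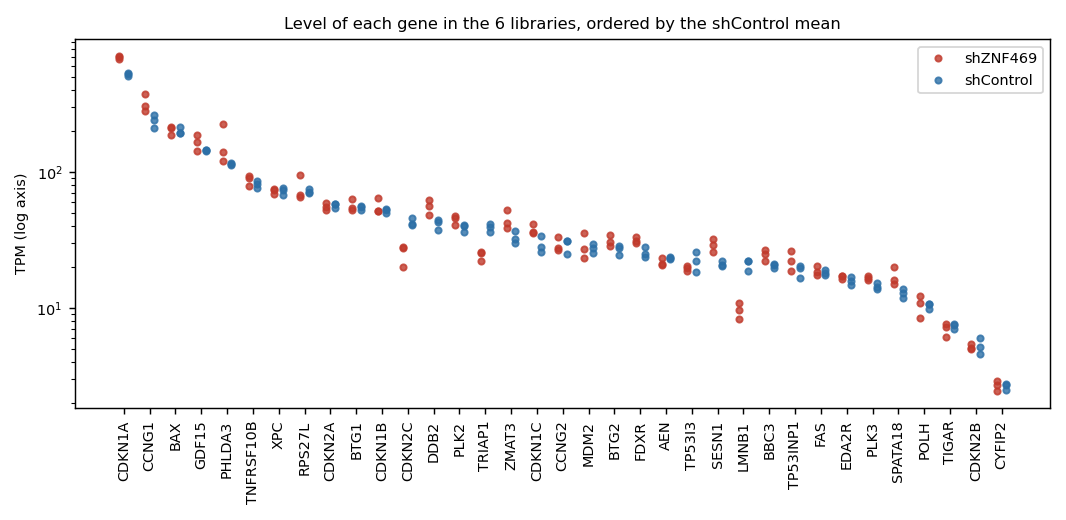
TPM of each of the 35 genes in every library (log axis), ordered from left to right by the mean in shControl, with shZNF469 points left of the shControl points. CDKN1A is the highest at 696 ± 17.2 TPM in shZNF469 and 523 ± 11.4 TPM in shControl, and the shZNF469 points of LMNB1, CDKN2C and TRIAP1 lie below their shControl points.

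The count of rises depended on single libraries, while the 3 falls did not. Leaving out 1 library at a time gave 2 to 8 rises among the 35, namely 2 without shZNF469 replicate 1, 2 without shControl replicate 2, 4 without shControl replicate 1 and 4 without shControl replicate 3. CDKN1A and SESN1 passed in each of these fits, as did the falls of LMNB1, CDKN2C and TRIAP1. Without shZNF469 replicate 1 the share of rises was 5.71% of the 35 and 1.22% of all tested genes, and without shControl replicate 2 it was 5.71% and 1.99%. The 3 falls, 8.57% of the 35, compared with 2.32% and 2.38% of all tested genes in these fits. On the authors' TPM, limma called 2 rises (1.42% of all genes) and the same 3 falls (3.22% of all genes). DESeq2 called 12 rises and 3 falls among the 35, where it called 11.2% of genes with an adjusted p higher and 11.3% lower.

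**Figure D5:**
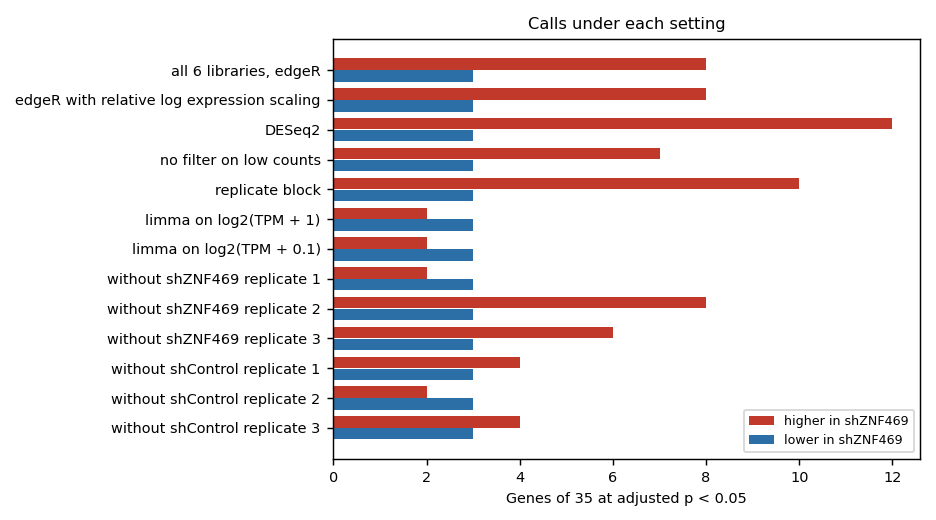
Number of the 35 genes past an adjusted p of 0.05 under each analysis, higher in shZNF469 (upper bar of a pair) and lower (lower bar). The lower bars stay at 3 throughout, and the upper bars run from 2 to 12.

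Other genes of the p53 pathway, from lists apart from the 35, were split. Of 60 tested further p53 targets, 8 were higher and 8 lower, where 4.56% of all tested genes were higher and 5.34% lower. The median log2 fold change of the 60 was 0.06. Leaving out 1 library gave 2 to 8 higher and 1 to 6 lower, the fewest (2 and 1) without shZNF469 replicate 1 or shControl replicate 1. ACAD11, a fatty acid oxidation gene, TRIM22 and PIDD1 rose by 1.42-fold, 1.28-fold and 1.44-fold (edgeR adjusted p = 0.00242, 0.00594 and 0.0110), and the mitotic kinase gene PLK1 fell by 1.36 on the log2 scale (edgeR adjusted p = 0.000997). The call of PIDD1 was lost without shZNF469 replicate 1 or shControl replicate 1, and that of TRIM22 on the TPM scale. Among the regulators of p53, EP300 and ATM rose (log2 fold change 0.23 and 0.31, edgeR adjusted p = 0.0288 and 0.0381). Both rises were lost without shZNF469 replicate 1 or any 1 control and by limma on TPM, where ATM averaged 13.2 TPM in shZNF469 and 13.0 TPM in shControl (adjusted p up to 0.950). MDM4 did not pass (edgeR adjusted p = 0.754).

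Of 19 cyclin, CDK and associated genes on which CDK inhibitors act, 10 fell and 1 rose. The median log2 fold change of the 19 was -0.75, and of all tested genes 5.34% were lower and 4.56% higher. SKP2, which encodes the ubiquitin ligase subunit that targets p21 and p27, had 38.6, 42.8 and 39.2 CPM in shZNF469, against 73.0, 71.4 and 67.8 CPM in shControl (edgeR adjusted p = 0.000648). CDK1 and CCNA2 had log2 fold changes of -1.29 and -1.17. CDK4 and CDK6, the kinases that INK4 proteins bind, did not pass (-0.05 and -0.11, edgeR adjusted p = 0.810 and 0.588), and were named after their values were seen. The 1 rise, CDC25B (1.19-fold higher, edgeR adjusted p = 0.0329), was named after its value was seen, and 0 of the 19 rose without any 1 library other than shZNF469 replicate 2. Without 1 library, 7 to 10 of the 19 fell.

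Secreted factors that accompany senescence did not move in one direction. Of 32 tested, 4 rose and 5 fell, where 4.56% of all tested genes were higher and 5.34% lower. The median log2 fold change of the 32 was -0.08. The chemokine gene CCL2 fell (log2 fold change -1.13, edgeR adjusted p = 0.00244), as did VEGFA (-0.56, edgeR adjusted p = 0.0139, lost without shControl replicate 1 or 2). IGFBP4 and the collagenase gene MMP1 rose by 1.29-fold and 1.30-fold (edgeR adjusted p = 0.00586 and 0.0101), MMP1 not without shControl replicate 1. IL6, a core factor of this secretion, had 13.8, 15.1 and 15.04 CPM in shZNF469, against 17.9, 17.5 and 19.1 CPM in shControl (1.24-fold lower, edgeR adjusted p = 0.0402), a call lost without any 1 of the 6 libraries. With 1 library left out, 1 to 6 rose and 1 to 4 fell, the fewest (1 and 1) without shControl replicate 1.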

How the data were processed

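RNA from one fibroblast line was sequenced in 3 shZNF469 and 3 shControl NEBNext Ultra libraries, per the labels' protocols. The submitters' processing notes name HISAT2, StringTie and GRCh38.p14. The sources used here do not state the counting tool, annotation or strand setting. The deposited table holds whole-number read counts per gene, and TPM that the authors computed, whose columns sum to 1000000. Of 21151 genes, 4195 had no symbol, and 58 symbols were repeated, for which the entry with the highest mean count was used.

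Counts were analysed with edgeR 4.0.16 in R 4.3.3 (filterByExpr with a minimum count of 10, TMM scaling, two-sided quasi-likelihood F-test with the group as its only term, Benjamini-Hochberg adjustment over 16353 genes, threshold 0.05). The SE came from the fold change and its F statistic. Alternatives used DESeq2 1.42.0, relative log expression scaling, no filter, a replicate block, limma 3.58.1 on log2(TPM + 1) and log2(TPM + 0.1), and each library left out. The procedure was tested on simulated counts. Chi-square per degree of freedom between libraries of a group was 8.01 to 36.4, above sampling noise. Ratios were compared by exact permutation over libraries.

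Genes named were the 35 and, from the other lists, up to 4 called genes with the lowest p plus a few defining ones. The members and lists were chosen with earlier results of these data known. Coordinates and promoter windows are RefSeq's on GRCh38.p14, and exon overlaps come from GENCODE release 29. One withheld item is not reported here.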

Additional observations from a re-analysis of the deposited data

How the results depend on the processing

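The falls of LMNB1, CDKN2C and TRIAP1 and the rises of CDKN1A and SESN1 held in each of the 12 alternatives, and no call among the 35 genes changed direction. With all 6 libraries edgeR called 745 genes higher and 874 lower, of which 8 and 3 were among the 35. DESeq2 called 1622 and 1624, limma on log2(TPM + 1) 233 and 526 with 2 rises among the 35, and limma on log2(TPM + 0.1) 191 and 462 with 2 rises. Leaving out 1 library gave 204 to 769 higher and 333 to 854 lower genes, 2 to 8 rises and 3 falls among the 35, and a ZNF469 log2 fold change of -1.20 to -1.03. The cause was not tested, except that fewer libraries were compared. The log2 difference of the ratios ran from 0.26 to 0.41 for CDKN1A to CDKN1B, 0.36 to 0.46 for CCNG1 to CCNG2, -1.33 to -1.19 for LMNB1 to LMNA and 0.26 to 0.53 for MDM2 to MDM4, chosen after seeing the data, and that of MDM2 to MDM4 was 0.14 from counts. The deviations of same-numbered libraries of the groups had correlations of -0.023, 0.076 and 0.033. These cannot tell whether the numbers mark a shared batch, which the labels do not state. With the replicate block 592 genes were higher and 736 lower, of which 10 and 3 were among the 35. The block lost the call of BTG2 and gained those of CDKN1C, FDXR and TP53INP1.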

Other observations

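In edgeR 4.56% of all tested genes were higher and 5.34% lower. With DESeq2 it was 11.2% and 11.3% of genes with an adjusted p. Genes linked to the FOXO factors, which share some targets with p53, were divided. Of 16 tested, FBXO32 and TXNIP rose (log2 fold change 0.58 and 0.43, edgeR adjusted p = 0.00106 and 0.00122) and CITED2 and KLF2 fell (-0.43 and -0.61, edgeR adjusted p = 0.00654 and 0.0228). The call of KLF2 was lost without shZNF469 replicate 1 or any 1 control. Of 19 genes listed for the RB-E2F and DREAM complexes, 5 fell and 0 rose in edgeR, while DESeq2 called 7 lower and 1 higher. MYBL2 and E2F1 fell by 2.48 and 1.91 on the log2 scale, and E2F2 was listed at 0 in all 3 shZNF469 libraries and at 38, 40 and 41 counts in shControl (a call lost without shControl replicate 1 or 3, with DESeq2, with the replicate block and by limma on TPM, adjusted p up to 0.214). RB1 did not pass (log2 fold change -0.10, edgeR adjusted p = 0.659).

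Of 26 genes of the BCL2 family and caspases, 2 rose and 3 fell, where 4.56% of all tested genes were higher and 5.34% lower. The survival gene BCL2 rose (log2 fold change 0.80, edgeR adjusted p = 0.0220), and the death-promoting genes PMAIP1 and BMF fell (-0.48 and -0.29, edgeR adjusted p = 0.0246 and 0.0218). The remaining rise was BCL2L1, named after its value was seen, and the remaining fall CYCS. With 1 library left out, 0 to 2 rose and 0 to 4 fell, none of either without shControl replicate 2 or 3. Of 23 chromatin and lysosome genes linked to senescence, 3 rose and 7 fell, among them H2AZ1 (-0.70, edgeR adjusted p = 0.00453) and DPP4 (0.49, edgeR adjusted p = 0.00177), and with 1 library left out 2 to 5 rose and 3 to 8 fell, the most without shZNF469 replicate 2 and the fewest without shZNF469 replicate 1 or shControl replicate 1.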
